A study of Mus musculus with 32 samples.

Results

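Heat shock chaperones are proteins that help other proteins fold, hold unfolded ones in solution and pass damaged ones on for degradation. The 10 genes described here, of 24646 genes measured in each tissue, were taken by name from the expression tables of liver, epididymal white fat (eWAT), inguinal white fat (iWAT) and brown fat (BAT). Of these, 7 are heat-inducible chaperones or co-chaperones (*Hspa1a*, *Hspa1b*, *Dnajb1*, *Hsph1*, *Hsp90aa1*, *Hspb1* and *Bag3*), 2 are chaperones that cells make without stress (*Hspa8* and *Hspd1*), and 1, *Hsf1*, encodes the transcription factor that switches the inducible genes on. They were chosen by their measured differences between genotypes in these same tables, so these differences are given as a description, with no test of their own. All 10 genes had a value on every array.

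The mice were males on a C57BL/6J background, either wild-type for *Gpr146* or lacking it in the whole body, and the wild-type mice were littermates. All of them were 20 weeks old, had been on high-fat feed (HFD) for 3 months and had been fasted overnight, so no group on another diet or in the fed state was compared. Each genotype had 4 samples per tissue, numbered by mouse, 32 arrays in all, and whether a number stands for the same animal in each tissue is not stated. *Gpr146*, which encodes an orphan G protein-coupled receptor, was absent from all cells of the knockout mice, so an effect within a tissue cannot be told apart from one that reached it from elsewhere. Labels of the knockout livers name both genotypes in 1 field and the knockout in the others.

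In a resting cell the factor HSF1 is held inactive by chaperones. When unfolded proteins draw these away, HSF1 forms trimers, binds heat shock elements and raises the inducible genes within minutes. An Hsp70 protein (*Hspa1a*, *Hspa1b*, *Hspa8*) grips an unfolded stretch with the help of a J protein such as *Dnajb1*, and releases it when an exchange factor such as *Hsph1* or *Bag3* swaps its nucleotide. In liver and fat these genes are known to answer to temperature, feeding, hormones and handling as well as to damaged protein.

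Because each tissue had been normalized on its own, values on the log2 scale were compared within a tissue. *Gpr146* was lower in every knockout mouse than in every wild-type mouse in all 4 tissues, by between 1.16 and 1.77. Markers set liver, BAT and white fat apart. Summed over 6 genes, the hepatocyte level was at least 13.94 in liver and at most 6.69 elsewhere, and the brown fat level was at least 12.67 in BAT and at most 8.72 elsewhere. The white fat depots were not told apart by these lists, with white fat markers from 12.32 to 13.18 in eWAT and from 12.74 to 13.27 in iWAT, and the table taken as eWAT is named only for visceral fat.

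One set of arrays stood apart from its group. In the 3 fat depots of wild-type mouse 1, *C130050O18Rik*, listed next to *Gpr146* in the RefSeq annotation, which was higher in knockout mice by 2.71 to 3.55 over the 4 tissues and in the other wild-type samples of the fat depots lay between 3.06 and 4.29, stood at 6.45 in eWAT, 6.98 in iWAT and 5.85 in BAT. Knockout mice had 6.14 to 7.96 there. In liver the same mouse number had 3.77, between the 3.54 and 3.94 of other wild-type livers. *Gpr146* in wild-type mouse 1 was the lowest of the wild-type values in each fat depot, at 5.32, 5.37 and 5.10, and still above each knockout mouse. The neighbour's level thus went against the label of these 3 samples, whose genotype is in doubt, while their *Gpr146* did not place them among the knockout mice. The label was kept, and member differences in the fat depots are given with and without this mouse.

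The upstream sequences of *Hspa1a* and *Hspa1b* are shown because *Hspa1b* had the lowest difference between genotypes in 3 tissues and *Hspa1a* is its near-identical neighbour. They lie on the minus strand of chromosome 17, with start sites 12918 bases apart, and are printed here from RefSeq (GRCm38.p6) for the 250 bases before the start. Capitals mark the heat shock element of 2 units, GAANNTTC or TTCNNGAA, searched on both strands, each of which reads the same on the opposite strand.
Hspa1a, chr17:34972157-34972406, minus strand: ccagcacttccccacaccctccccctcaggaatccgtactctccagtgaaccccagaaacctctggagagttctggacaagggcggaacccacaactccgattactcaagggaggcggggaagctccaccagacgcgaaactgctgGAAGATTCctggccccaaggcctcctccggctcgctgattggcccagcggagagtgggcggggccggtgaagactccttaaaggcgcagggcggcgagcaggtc
Hspa1b, chr17:34959239-34959488, minus strand: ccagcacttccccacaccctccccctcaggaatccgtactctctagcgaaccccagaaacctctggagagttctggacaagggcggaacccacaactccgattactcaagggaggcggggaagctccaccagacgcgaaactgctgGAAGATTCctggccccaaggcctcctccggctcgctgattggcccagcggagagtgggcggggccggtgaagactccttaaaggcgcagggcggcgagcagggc

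The stretches differed at 3 of 250 positions (98.8% identity), namely C44T, T47C and T249G, with the base of *Hspa1a* first and positions counted from 1 at the 5′ end of the printed stretch. Both hold the 2-unit element at the same place, starting 104 bases before the start, and both hold the CCAAT box (CCAAT or ATTGG), which 33.85% of the 32851 promoter windows hold. Transcripts and probes of the 2 genes were not compared here. A probe for one may also bind RNA of the other, so the split between the 2 genes is uncertain.

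Of the 10 members, 7 were matched by symbol to the promoter table, with 10 start sites among them. *Hspa8*, *Hsp90aa1* and *Hsf1* were not matched. A 2-unit element was found before 5 of the 7 genes, against 12.84% of all windows, and 3 alternating units before 1, *Hspd1*, against 0.466% of all windows. The 5 were *Hspd1* and 4 of the 6 inducible members matched. A gene was counted if any of its start sites had the element, while the shares are of single windows, so the 2 are not on the same footing. The stretches around the elements are shown for the 3 members other than the *Hspa1* pair, with the elements in capitals, because they set an inducible exchange factor and a small heat shock protein beside the mitochondrial chaperonin, which did not follow them in white fat.
Hspd1, chr1:55088034-55088101, minus strand: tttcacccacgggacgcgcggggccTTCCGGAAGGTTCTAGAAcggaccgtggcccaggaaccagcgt
Hspb1, chr5:135887777-135887854, plus strand: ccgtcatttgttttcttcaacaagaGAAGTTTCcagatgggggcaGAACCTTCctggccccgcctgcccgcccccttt
Hsph1, chr5:149636337-149636394, minus strand: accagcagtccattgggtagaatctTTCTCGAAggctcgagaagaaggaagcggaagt

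Before *Hspd1* the 3 elements of 2 units overlap, from 144 bases before the start, and make up the run of alternating units. For *Dnajb1* and *Bag3* these letters were not in the window. A match is a stretch of letters and was not measured as a bound site.

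Heat-inducible members had lower mean values in knockout mice in all 4 tissues. *Hspa1b* had the lowest difference of the 10 in liver, eWAT and BAT, with wild-type means 11.9-fold above the knockout means in liver and 3.41-fold in eWAT, and *Hsph1* had it in iWAT. No fold is given for these genes in iWAT and BAT, because knockout means of *Hspa1b* lay at -0.10 and 0.34 relative to the median gene of the arrays and that of *Hsph1* in iWAT at 0.36, so the probes were dim. The mean log2 difference over the 7 inducible members was -1.36 in liver, -0.78 in eWAT, -0.50 in iWAT and -1.44 in BAT, while that of *Hspa8* and *Hspd1* was -0.22, 0.01, 0.02 and -0.46. The inducible mean was -0.89 (eWAT), -0.66 (iWAT) and -1.85 (BAT) without wild-type mouse 1, and that of *Hspa8* and *Hspd1* was -0.03, -0.04 and -0.59. In bulk tissue, fewer cells of a type and less RNA per cell cannot be told apart. Over all genes the median difference lay between 0.00 and 0.03.

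**Figure D1:**
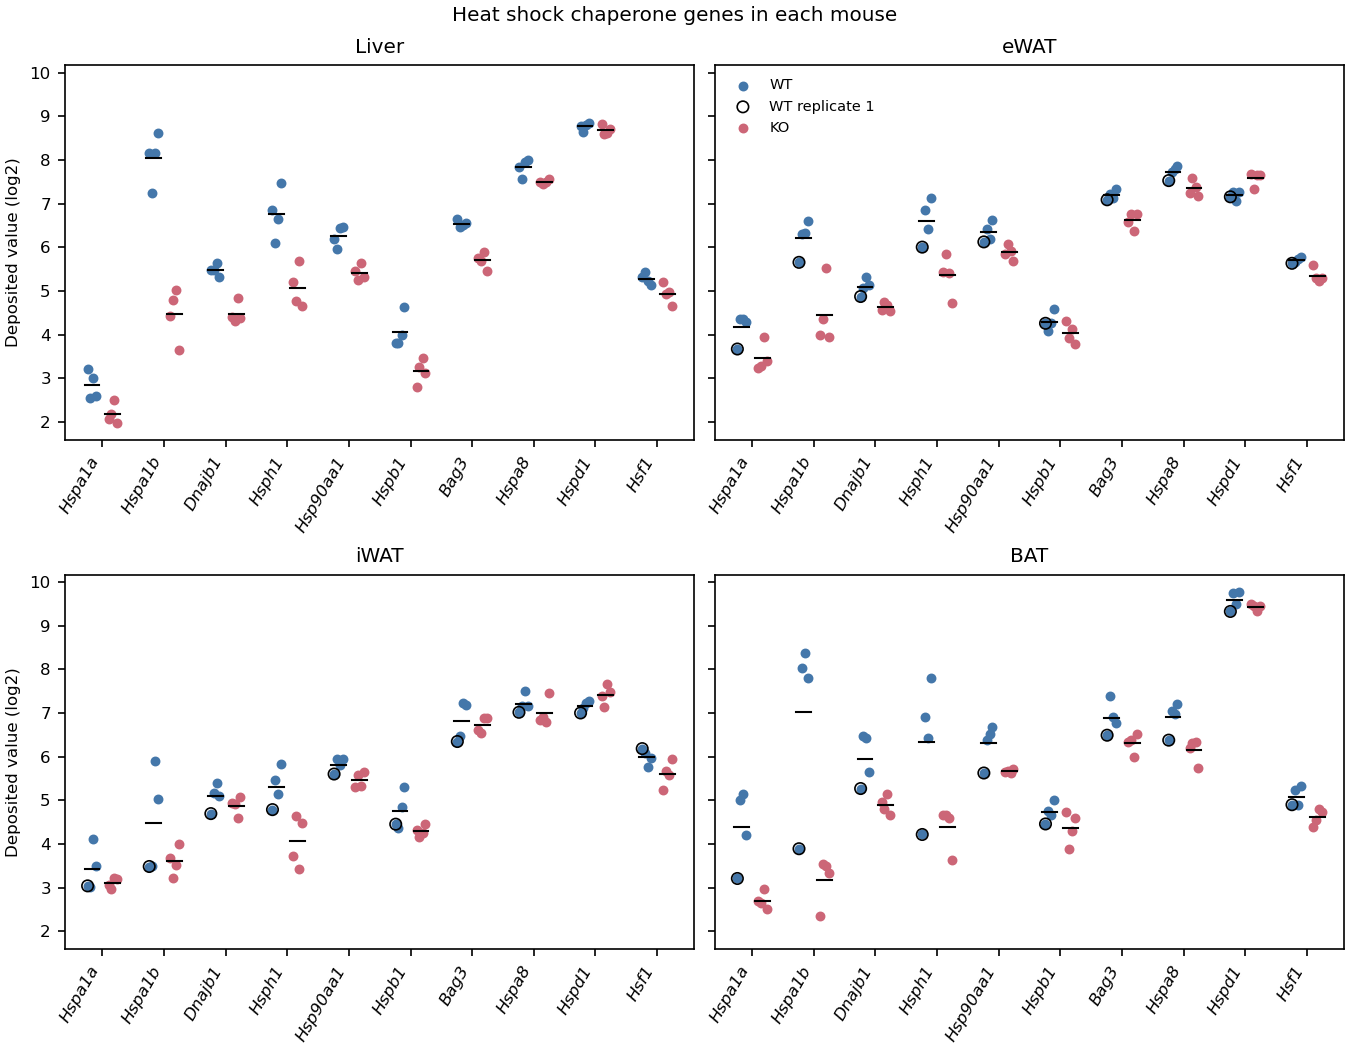
Each point is the deposited log2 value of 1 mouse for 1 heat shock chaperone gene, in 4 panels for the 4 tissues, with wild-type mice (WT) in blue, knockout mice (KO) in red and a black bar at the mean of 4 mice. Rings mark wild-type mouse 1 in the fat depots, which in BAT lies near the knockout mice for *Hspa1b* (3.89, against 7.81 to 8.36 in the other 3 wild-type mice).

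*Hspa1b*, the stress-inducible Hsp70, separated the genotypes in liver. Its log2 values in wild-type livers were 8.17, 7.24, 8.15 and 8.62, and in knockout livers 4.42, 4.80, 5.02 and 3.64, a difference of -3.58 (SE 0.32, n = 4 and 4). A gap of 2.22 lay between the lowest wild-type and the highest knockout liver, wider than the range within either genotype. No gene of the 24646 had a lower difference in liver.

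In BAT *Hspa1b* stood at 3.89, 8.02, 8.36 and 7.81 in wild-type mice and at 2.35, 3.54, 3.50 and 3.34 in knockout mice. The first wild-type mouse lay 0.35 above the highest knockout mouse, and the other 3 lay from 7.81 upward, so the 4 wild-type mice fell into 1 low and 3 high values. The difference was -3.84 (SE 0.83) with this mouse and -4.88 (SE 0.28) without it. No gene had a lower difference in BAT in the comparison of all 8 mice.

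In eWAT, *Hspa1b* stood at 5.66, 6.31, 6.32 and 6.61 in wild-type mice and at 4.00, 4.35, 5.53 and 3.94 in knockout mice. The groups were apart by 0.12, with knockout mouse 3 close to the wild-type range, and the difference was -1.77 (SE 0.34), or -1.96 (SE 0.35) without wild-type mouse 1. In iWAT the wild-type values were 3.48, 3.50, 5.91 and 5.03 and the knockout values 3.69, 3.21, 3.53 and 4.01. There the first 2 wild-type mice lay among the knockout mice, the groups overlapped, and the wild-type SD of 1.2 was larger than the difference of -0.87 (SE 0.51), which was -1.20 (SE 0.49) without wild-type mouse 1.

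In wild-type livers *Hspa1a*, the other inducible Hsp70 gene, stood at 3.22, 2.55, 3.01 and 2.61 and in knockout livers at 2.06, 2.18, 2.50 and 1.99, groups that were 0.04 apart. The wild-type mean stood at -0.17 relative to the median gene of the arrays, so *Hspa1a* was dim in liver. In BAT it stood at 3.21, 5.02, 5.14 and 4.2 in wild-type and at 2.71, 2.65, 2.96 and 2.51 in knockout mice, which again left wild-type mouse 1 beside the knockout mice. Differences were -0.66 (SE 0.16) in liver, -0.71 (SE 0.20) in eWAT, -0.31 (SE 0.23) in iWAT and -1.69 (SE 0.36) in BAT, and the last 3 became -0.87 (SE 0.17), -0.44 (SE 0.23) and -2.08 (SE 0.21) without wild-type mouse 1.

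*Dnajb1*, the J protein that brings clients to Hsp70 and starts its cycle, was lower in each knockout mouse than in each wild-type mouse in liver, eWAT and BAT. Wild-type livers had 5.48, 5.49, 5.65 and 5.32 and knockout livers 4.40, 4.31, 4.84 and 4.39, wild-type mean 2.00-fold higher. In BAT the wild-type mice had 5.27, 6.47, 6.43 and 5.64 and the knockout mice 4.97, 4.80, 5.16 and 4.66, with the lowest wild-type value again in mouse 1. The difference there was -1.06 (SE 0.25), or -1.29 (SE 0.21) without this mouse, and in eWAT it was -0.46 (SE 0.10), or -0.53 (SE 0.10). The groups overlapped in iWAT, where means were 5.09 ± 0.29 and 4.88 ± 0.21 (SD, n = 4 each), a difference of -0.21 (SE 0.16), or -0.35 (SE 0.14) without mouse 1.

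*Hsph1*, an Hsp110 protein that exchanges the nucleotide of Hsp70, had the same difference in both white depots, at -1.24 (SE 0.28 in eWAT and 0.31 in iWAT), and -1.44 (SE 0.26) and -1.41 (SE 0.31) without wild-type mouse 1. In iWAT its values were 4.79, 5.46, 5.14 and 5.83 in wild-type mice and 3.72, 4.64, 3.42 and 4.49 in knockout mice. It was the single member of the 10 with no overlap between genotypes there, against 3.86% of all genes with every knockout mouse below every wild-type mouse. In BAT it stood at 4.22, 6.91, 6.42 and 7.80 in wild-type and at 4.66, 4.65, 4.6 and 3.63 in knockout mice. Here mouse 1 lay below 3 of the 4 knockout mice, and the difference moved from -1.95 (SE 0.62) to -2.66 (SE 0.34) without it.

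*Bag3*, which exchanges the nucleotide of Hsp70 and hands its clients to autophagy, stood at 6.65, 6.46, 6.50 and 6.55 in wild-type livers and at 5.75, 5.69, 5.91 and 5.47 in knockout livers. The wild-type livers spread over 0.19, and their mean was 1.79-fold higher. In eWAT the difference of *Bag3* was -0.57 (SE 0.11), with groups 0.33 apart, and in BAT -0.58 (SE 0.18). In iWAT its difference was -0.08 (SE 0.21), no more than its error, and wild-type mice 1 and 2 were lower than each knockout mouse, at 6.35 and 6.48. Its differences without wild-type mouse 1 were -0.61 (SE 0.12) in eWAT, -0.23 (SE 0.20) in iWAT and -0.72 (SE 0.17) in BAT.

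*Hsp90aa1*, the inducible cytosolic Hsp90, had wild-type liver values of 6.19, 5.96, 6.44 and 6.47 and knockout liver values of 5.45, 5.25, 5.65 and 5.32. The knockout mice of BAT lay within 0.10 of each other, from 5.62 to 5.72, with wild-type mouse 1 among them at 5.63 and the other 3 wild-type mice from 6.39 to 6.68. Its differences were -0.85 (SE 0.13) in liver, -0.46 (SE 0.13) in eWAT, -0.36 (SE 0.12) in iWAT and -0.63 (SE 0.19) in BAT. Leaving out wild-type mouse 1 gave -0.53 (SE 0.13), -0.43 (SE 0.12) and -0.86 (SE 0.09) for the 3 fat depots in that order.

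*Hspb1*, a small heat shock protein that holds unfolded proteins without using ATP, had no overlap between genotypes in liver, with 3.81, 3.81, 4.00 and 4.63 in wild-type and 2.81, 3.27, 3.46 and 3.13 in knockout mice. In the fat depots its groups overlapped, with differences of -0.25 (SE 0.14) in eWAT, -0.45 (SE 0.20) in iWAT and -0.35 (SE 0.18) in BAT, and -0.26 (SE 0.16), -0.55 (SE 0.21) and -0.44 (SE 0.19) without wild-type mouse 1.

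**Figure D2:**
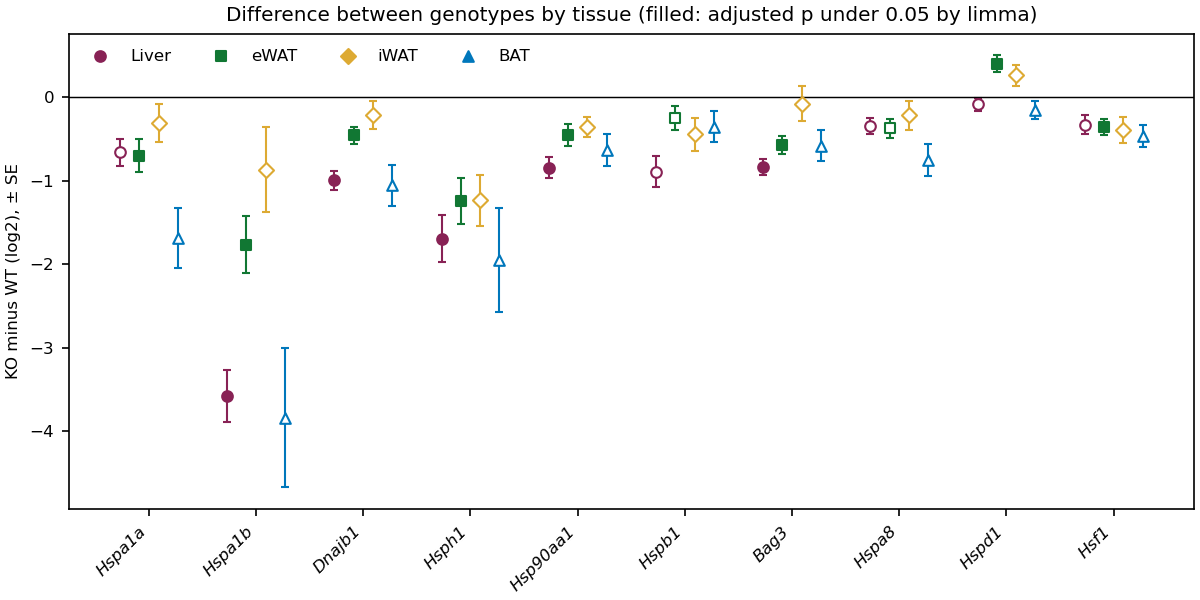
Points give the difference between knockout and wild-type means on the log2 scale for each of the 10 genes (x axis) in 4 tissues (colour and shape), with bars of 1 SE and filled symbols where limma's adjusted p was under 0.05. *Hspa1b* reached -3.58 in liver and -3.84 in BAT, and *Hspd1* lay above 0 in eWAT (0.40) and iWAT (0.26).

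The 2 chaperones made without stress differed in opposite directions in white fat, so that their mean there was near 0, and each was further from 0 in eWAT than the inducible *Hspb1*. *Hspa8*, the housekeeping Hsp70 Hsc70, stood at 7.85, 7.57, 7.96 and 8.0 in wild-type livers and 7.49, 7.46, 7.49 and 7.56 in knockout livers, groups separated by 0.0038. In BAT it was at 6.38, 7.06, 6.98 and 7.21 in wild-type mice and 6.21, 6.32, 6.33 and 5.74 in knockout mice. That difference of -0.75 (SE 0.19) was larger than the -0.35 (SE 0.10) of liver and the -0.37 (SE 0.11) of eWAT, though whether the tissues differ was not tested. In iWAT it was -0.22 (SE 0.17). The differences of *Hspa8* without wild-type mouse 1 were -0.44 (SE 0.11) in eWAT, -0.29 (SE 0.19) in iWAT and -0.93 (SE 0.15) in BAT. *Hspa8* is the 1 member marked as an average of several probe sets, by an identifier that is not a whole number. Such a mark can miss others.

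*Hspd1*, the mitochondrial Hsp60 chaperonin, went the other way in eWAT. Its wild-type values there were 7.16, 7.28, 7.06 and 7.27 and its knockout values 7.69, 7.35, 7.66 and 7.67, each above all wild-type mice, 1.32-fold higher on average. In liver (-0.09, SE 0.08) and BAT (-0.16, SE 0.11) its groups overlapped, as they did in iWAT, where 3 of 4 knockout values were over the highest wild-type value and the difference was 0.26 (SE 0.13). With wild-type mouse 1 left out it was 0.39 (SE 0.11) in eWAT, 0.21 (SE 0.14) in iWAT and -0.25 (SE 0.10) in BAT.

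*Hsf1*, the regulator of the inducible genes, had mean differences from -0.33 in liver to -0.47 in BAT. In BAT its values were 4.90, 5.23, 4.90 and 5.32 in wild-type mice and 4.39, 4.56, 4.81 and 4.72 in knockout mice, without overlap, and in eWAT the groups were 0.04 apart. Wild-type mouse 1 of BAT, low for the inducible genes, was level with wild-type mouse 3 for *Hsf1*, and without it the difference was -0.38 (SE 0.11) in eWAT, -0.33 (SE 0.18) in iWAT and -0.53 (SE 0.14) in BAT. The activity of HSF1 depends on its trimers and their modification, which arrays do not measure.

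Counted over the 10 members, all knockout mice lay below all wild-type mice for 8 genes in liver, 6 in eWAT, 1 in iWAT and 5 in BAT. Over all genes this held for 4.16% in liver, 13.0% in eWAT and 3.92% in BAT. The reverse held for 1 member in eWAT, *Hspd1*, and for 8.63% of all genes. In limma's fit across all genes of a tissue, with Benjamini-Hochberg adjusted p under 0.05, 5 members were called lower in liver (*Hspa1b*, *Dnajb1*, *Hsph1*, *Hsp90aa1* and *Bag3*), against 0.503% of all genes. In eWAT 7 were called lower, the same 5 with *Hspa1a* and *Hsf1*, against 10.7% of all genes, and *Hspd1* was called higher, against 4.57%. As the members were chosen on this contrast, nothing is read from these counts.

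No member was called in iWAT, where 0% of genes were called lower and 0% higher, or in BAT, where 0.0243% were called lower and 0.00406% higher. At an unadjusted p under 0.05, limma had 9 of the 10 members in liver, against 13.3% of all genes, 9 in eWAT, against 29.8%, 4 in iWAT, against 15.4%, and 8 in BAT, against 12.7%, either direction counted. The methods' t-test, adjusted the same way, called 0 members in any tissue. Unadjusted, that test had 9 members under 0.05 in liver, 9 in eWAT, 2 in iWAT and 7 in BAT. Its shares over all genes were not counted, so nothing is read from these counts about the members. Without wild-type mouse 1, 6 members were called lower in BAT (*Hspa1a*, *Hspa1b*, *Dnajb1*, *Hsph1*, *Hsp90aa1* and *Hspa8*), against 0.252% of all genes, and 9 had no overlap, against 7.04%. In eWAT without this mouse 7 members were called lower, against 6.73%, and 0 were called higher, against 2.60%. In iWAT without it 0 members were called, against 0.00811%.

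**Figure D3:**
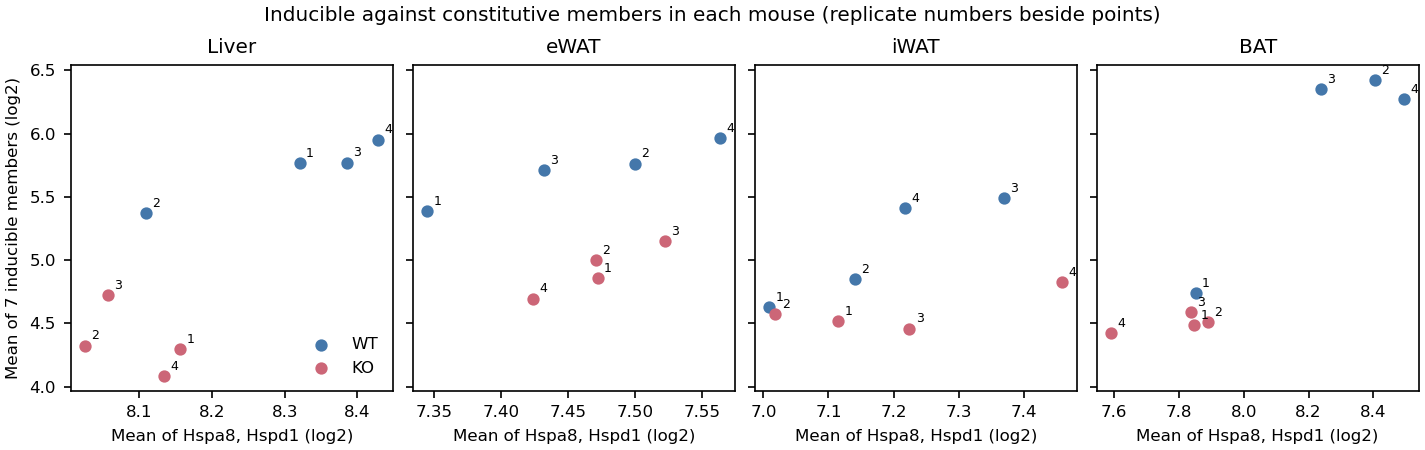
Each point is 1 mouse, with the mean log2 value of *Hspa8* and *Hspd1* on the x axis (scaled per tissue) and the mean of the 7 inducible members on the y axis, wild-type in blue and knockout in red. Knockout mice lay below wild-type mice on the y axis in liver, eWAT and BAT, and wild-type mouse 1 of BAT (4.74) was close to the knockout mice (4.42 to 4.59).

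Set against the chaperones made without stress on the same array, the inducible members separated the genotypes in liver and eWAT whichever chaperone was subtracted, and in iWAT and BAT only when *Hspd1* was. Their mean minus that of *Hspa8* and *Hspd1* ran from -2.74 to -2.48 in wild-type livers and from -4.05 to -3.33 in knockout livers. In eWAT it ran from -1.96 to -1.60 in wild-type and from -2.73 to -2.37, in iWAT from -2.38 to -1.80 and from -2.77 to -2.44, and in BAT from -3.11 to -1.89 and from -3.38 to -3.17. The genotypes did not overlap in any tissue for this quantity, although in iWAT the inducible mean alone did, at 4.63 to 5.49 in wild-type and 4.46 to 4.82 in knockout mice. With *Hspa8* alone subtracted, they overlapped in iWAT, at -2.39 to -1.74 in wild-type and -2.62 to -2.32 in knockout mice, and in BAT, at -1.64 to -0.63 and -1.81 to -1.32, and did not overlap in liver and eWAT. With *Hspd1* alone, whose mean was higher in knockout white fat, they overlapped in none. The overlaps in iWAT and BAT were gone without wild-type mouse 1, although in iWAT the lowest wild-type and the highest knockout value were both -2.32. Probes differ in brightness, so this quantity is read between mice and not as a ratio of chaperones within one.

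Tissues were set side by side only as an order, because each had its own normalization. The wild-type level of *Hspa1b* was 8.05 ± 0.58 in liver, 7.02 ± 2.1 in BAT, 6.23 ± 0.40 in eWAT and 4.48 ± 1.2 in iWAT (SD, n = 4 each), and the order was the same when taken above the median gene of the arrays. Liver and BAT, and BAT and eWAT, were within the spread of BAT. In BAT without wild-type mouse 1 it stood at 8.07 ± 0.28 (SD, n = 3), level with liver, and likewise at 6.41 ± 0.17 in eWAT and 4.81 ± 1.2 in iWAT. In knockout mice *Hspa1b* stood at 4.47 in liver, 4.46 in eWAT, 3.61 in iWAT and 3.18 in BAT, the last 2 near the median gene of the arrays. For *Hspd1* BAT came first, with 9.59 ± 0.22 in wild-type BAT, 8.78 ± 0.09 in liver, 7.19 ± 0.10 in eWAT and 7.16 ± 0.12 in iWAT. Taken above the median gene of the arrays, wild-type *Hspd1* was 4.04 ± 0.11 in eWAT and 3.48 ± 0.14 in iWAT, so whether the white depots differed for it depended on the scale.

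Mice of one group also differed among themselves, which the choice of members did not use where the genotype labels hold. They are in doubt for wild-type mouse 1 of the fat depots, so its deviation cannot be told apart from a difference between genotypes. The deviations of this mouse, for the pair and for the other members, were -0.53 and -0.24 in eWAT and -0.69 and -0.38 in iWAT. Its arrays were not left out together. With each group mean removed, the deviation of the pair *Hspa1a* and *Hspa1b* and that of the other 5 inducible members correlated with Pearson's r of 0.76 and Spearman's rho of 0.69 over 32 arrays. The deviations are not independent, because the mean of each group was removed. A mouse number may also stand for the same animal in the 4 tissues, and the value is a description. Within a tissue r was 0.79 in liver, 0.43 in eWAT, 0.62 in iWAT and 0.88 in BAT (8 arrays each). The BAT value rests on wild-type mouse 1, with deviations of -2.16 for the pair and -0.83 for the other members. For the pair, the other BAT arrays lay from -0.42 to 1.05. The r of BAT without this mouse was not calculated, so BAT is not ranked above the other tissues. Without wild-type mouse 1 of BAT, and with the group means taken anew, r over the other arrays was 0.50. Without this array and wild-type mouse 3 of iWAT, the 2 farthest from the median, r was 0.61. That value kept the group means of all mice, so the 2 values cannot be compared. Against *Hspa8* and *Hspd1* together, the pair had an r of 0.69 and a rho of 0.59 over all 32 arrays. Within a tissue that r was 0.36 in liver, 0.73 in eWAT, 0.74 in iWAT and 0.74 in BAT. This was lower than against the inducible members in liver and BAT and higher in eWAT and iWAT. Moving with the pair was thus not particular to the inducible members.

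**Figure D4:**
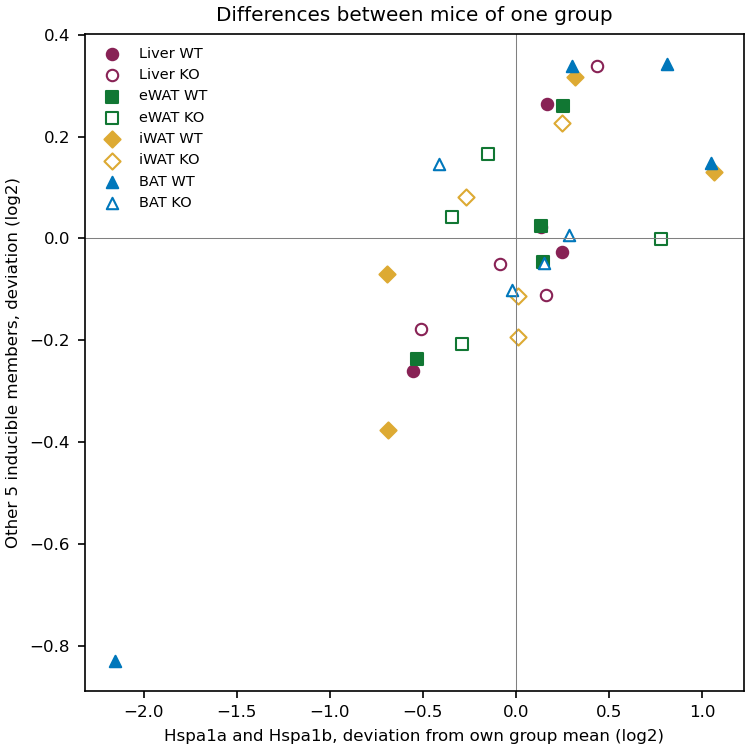
Each of the 32 points is 1 array, with the deviation of *Hspa1a* and *Hspa1b* from their own group's mean (log2, x axis) against the deviation of the other 5 inducible members (y axis), coloured by tissue, filled for wild-type and open for knockout mice. The point at the lower left is wild-type mouse 1 of BAT, and r falls from 0.76 to 0.50 without it.

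Among single members the r with the *Hspa1* pair was 0.71 for *Dnajb1*, 0.66 for *Hsp90aa1*, 0.64 for *Hspa8*, 0.62 for *Hsph1*, 0.59 for *Bag3*, 0.44 for *Hspd1*, 0.35 for *Hspb1* and 0.02 for *Hsf1*. Without wild-type mouse 1 of BAT these were 0.53 for *Dnajb1*, 0.31 for *Hsp90aa1*, 0.43 for *Hspa8*, 0.21 for *Hsph1*, 0.50 for *Bag3*, 0.20 for *Hspd1*, 0.29 for *Hspb1* and -0.23 for *Hsf1*, so those of *Hsph1* and *Hsp90aa1* moved most. *Hspa1a* and *Hspa1b* correlated with r = 0.85 with each other, to which shared probes may add. The gene outside the 10 with the highest r was *Dnaja1* (0.84), another J protein of Hsp70, followed by *Prmt2* (0.77), *Ahsa2* (0.77), *Ube2e3* (0.74), *Mier2* (0.70), *Plcd3* (0.70), *P4ha1* (0.69), *Dnajb2* (0.68), *Ppp1r27* (0.65) and *Cd3eap* (0.65). Of these 10 genes, 3 stayed among the first 10 without wild-type mouse 1 of BAT, namely *Dnaja1* (0.68), *Prmt2* (0.69) and *Plcd3* (0.74), and *P4ha1* went to 0.27.

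*P4ha1*, a subunit of the enzyme that hydroxylates collagen prolines, also fell in knockout mice, by 1.41 in liver (limma adjusted p = 0.0056) and by 0.91 in eWAT (adjusted p = 0.011), with differences of -0.47 in iWAT (adjusted p = 0.33) and -1.92 in BAT (adjusted p = 0.14). *Dnajb2*, a J protein tied to the proteasome, rose by 0.59 in eWAT (adjusted p = 0.0103). *Dnaja1* was called lower in eWAT with all mice (-0.38, limma adjusted p = 0.020) and in no other tissue. *Ahsa2*, *Prmt2*, *Mier2*, *Plcd3*, *Ppp1r27*, *Cd3eap* and *Ube2e3* were called in no tissue with all mice.

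Other chaperones and co-chaperones outside the members were described from lists, of which the broadest held 36 measured heat shock genes. In liver, 2 were called lower and 0 higher, with a median difference of -0.17 against 0.01 over all genes, of which 0.162% were called higher. These were *Chordc1*, an Hsp90 co-chaperone, at -1.09 (SE 0.16, limma adjusted p = 0.014), and *Cacybp*, which binds Hsp90 and ubiquitin ligases, at -0.76 (SE 0.10, adjusted p = 0.011). In eWAT, 7 were called lower, against 10.7% of all genes, and 3 higher, against 4.57%, with a median of -0.09 against 0.03. There 5 were called lower and 1 higher without wild-type mouse 1. The lower ones included *Cacybp* (-0.90, adjusted p = 0.013), *Hspa4l* (-0.66, adjusted p = 0.022), an Hsp110 protein, and *Serpinh1* (-0.66, adjusted p = 0.014), the collagen chaperone Hsp47. Besides *Dnajb2*, *Bag1* (0.49, adjusted p = 0.023) and *Hspb8* (0.45, adjusted p = 0.043) were higher.

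None of the 36 was called in iWAT or BAT with limma, where 11 and 18 had an unadjusted p under 0.05, against 15.4% and 12.7% of all genes. The methods' t-test called 0, and its share over all genes was not counted. The smallest p belonged to *Hsp90ab1*, the constitutive cytosolic Hsp90, in iWAT (-0.36, adjusted p = 0.22) and to *Hspbp1*, an exchange factor of Hsp70, in BAT (-0.54, adjusted p = 0.11). Without wild-type mouse 1, 6 were called lower in BAT: *Dnaja1*, *Ahsa2*, *Chordc1*, *Dnaja4*, *Sqstm1* and *Ahsa1*, with differences from -1.18 to -0.67. *Ahsa1* and *Ahsa2* encode activators of the Hsp90 ATPase and *Sqstm1* the autophagy receptor p62.

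**Figure D5:**
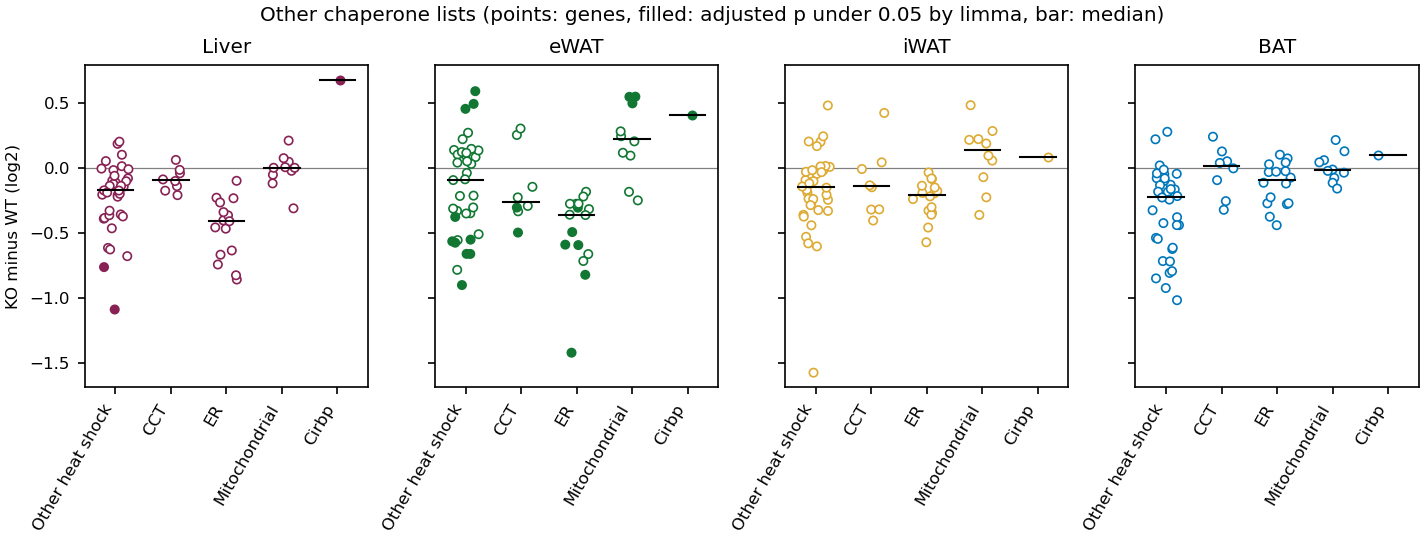
Points are genes of 5 chaperone and cold-response lists (x axis) with the difference between knockout and wild-type means (log2, y axis) in each tissue, filled where limma's adjusted p was under 0.05, with a bar at the list's median. Endoplasmic reticulum chaperones had medians of -0.41 in liver and -0.36 in eWAT, and mitochondrial ones 0.00 in liver and 0.22 in eWAT.

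The chaperones of the endoplasmic reticulum, which fold secreted proteins and answer to another stress pathway, had negative differences for 16 of 16 genes in liver, eWAT and iWAT. In eWAT 6 were called lower, led by *Sdf2l1* (-1.42, adjusted p = 0.018), a partner of the lumenal Hsp70, *Hspa5* (-0.82, adjusted p = 0.020), that Hsp70 itself, and *Dnajb11* (-0.59, adjusted p = 0.028). In liver the smallest p belonged to *Dnajb9* (-0.82, adjusted p = 0.13) and *Herpud1* (-0.47, adjusted p = 0.14), and limma called 0 of 16, with 5 at an unadjusted p under 0.05, against 13.3% of all genes. The mitochondrial chaperones and proteases, to whose compartment *Hspd1* belongs, had 3 of 10 called higher in eWAT, *Clpp* (0.55, adjusted p = 0.0103), *Trap1* (0.55, adjusted p = 0.021) and *Lonp1* (0.50, adjusted p = 0.040), and 0 lower. Of the 8 subunits of the cytosolic chaperonin, 2 were called lower in eWAT, *Cct3* (-0.50, adjusted p = 0.033) and *Cct8* (-0.30, adjusted p = 0.047). Over all genes of eWAT, 10.7% were called lower and 4.57% higher. In eWAT without wild-type mouse 1, limma called 4 endoplasmic genes lower, 2 mitochondrial genes higher and 0 chaperonin genes. Over all genes, 6.73% were then called lower and 2.60% higher. Under quantile normalization the adjusted p was 0.096 for *Cct3*, 0.35 for *Cct8* and 0.11 for *Dnajb11*. In iWAT and BAT, limma called 0 genes of these 3 lists, with 4 and 4 endoplasmic, 2 and 1 mitochondrial and 2 and 2 chaperonin genes at an unadjusted p under 0.05. Of all genes, 15.4% in iWAT and 12.7% in BAT had such a p.

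*Cirbp*, an RNA-binding protein that cells make more of when cooled, was examined as a gene with the opposite response to temperature. In liver its values were 4.02, 4.43, 4.00 and 4.43 in wild-type mice and 4.74, 4.96, 5.01 and 4.87 in knockout mice. Each knockout liver lay above each wild-type liver, which held for 3.62% of all genes, and the rise of 0.68 (SE 0.12) had an adjusted p of 0.031. In eWAT *Cirbp* rose by 0.41 (SE 0.09, adjusted p = 0.018), again with no overlap. In iWAT and BAT it differed by 0.08 (SE 0.16) and 0.10 (SE 0.17), within its error. Without 1 array in turn, the adjusted p ran from 0.041 to 0.098 in liver and from 0.013 to 0.060 in eWAT. Body temperature was not among the measurements.

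Of 4 genes of the HSF family and its regulators other than *Hsf1*, limma called 0 in any tissue, and at most 1 per tissue had an unadjusted p under 0.05, *Hsbp1* in liver (-0.25, adjusted p = 0.24) and *Hsf2* in eWAT (-0.34, adjusted p = 0.077) and iWAT (-0.36, adjusted p = 0.25). Of 12 immediate-early genes, which also respond to handling and to how fast tissue is collected, limma called 0 in any tissue with all mice. In BAT all 12 had negative differences and 4 an unadjusted p under 0.05, led by *Ier3* (-1.38, adjusted p = 0.13), which was called lower without wild-type mouse 1. In eWAT the first were *Klf6* (-0.60, adjusted p = 0.0502) and *Atf3* (-2.12, adjusted p = 0.064), in iWAT *Klf6* (-0.56, adjusted p = 0.26), and in liver *Junb*, at 0.64 (adjusted p = 0.31). Of 14 clock genes 5 were called higher and 2 lower in eWAT, led by *Per3* (1.34, adjusted p = 0.022) and *Arntl* (-1.19, adjusted p = 0.048), which came to 0 called without wild-type mouse 1, and 0 in liver, iWAT and BAT, where 4, 4 and 2 had an unadjusted p under 0.05. Over all genes of eWAT, 4.57% were called higher and 10.7% lower. The share of all genes with an unadjusted p under 0.05 was 13.3% in liver, 29.8% in eWAT, 15.4% in iWAT and 12.7% in BAT. The methods' t-test called 0 genes of these lists, and its share over all genes was not counted.

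Markers of other cells moved in some of the same comparisons. In eWAT, all 7 measured macrophage markers were called lower, and their summed level ran from 12.58 to 12.68 in wild-type and from 9.84 to 12.25 in knockout mice, while 1, *Itgam*, was called without wild-type mouse 1. Of 6 white fat markers there, 5 were called higher and 1, *Lep*, lower. Over all genes of eWAT, 4.57% were called higher and 10.7% lower. In liver, 3 of 4 endothelial markers were called lower (*Tek*, *Kdr* and *Cdh5*), against 0.503% of all genes. Their summed level ran from 7.22 to 7.44 in wild-type and from 6.09 to 6.90 in knockout mice. No defining marker of these lists was at 0, and their part in the heat shock differences was not tested. The 6 brown fat markers summed in BAT to 12.74, 12.94, 12.87 and 12.95 in wild-type and 12.67, 12.74, 12.68 and 12.75 in knockout mice. Wild-type mouse 1 lay within the knockout range. Of these markers 5 had negative differences and 4 an unadjusted p under 0.05, against 12.7% of all genes, and limma called 0. In BAT the summed level of 10 skeletal muscle markers was 6.72, 10.29, 11.12 and 6.76 in wild-type mice and 6.48, 11.34, 7.25 and 6.62 in knockout mice. *Hspa1b* stood, in the same order, at 3.89, 8.02, 8.36 and 7.81 and at 2.35, 3.54, 3.50 and 3.34. In iWAT the summed level of 10 lymphocyte markers was 11.44, 11.41, 7.10 and 6.98 in wild-type and 6.98, 11.18, 7.01 and 9.16 in knockout mice. There, in the same order, *Hspa1b* was at 3.48, 3.50, 5.91 and 5.03 and at 3.69, 3.21, 3.53 and 4.01. The 2 wild-type mice with the high levels, 1 of them mouse 1, were those with low *Hspa1b*. Among knockout mice the lowest *Hspa1b* went with the level of 11.18 and the highest with that of 9.16. The part of brown fat cells, of muscle and of lymphocytes in the heat shock differences was not tested.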

How the data were processed

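Total RNA (100 ng) of 32 tissue samples was labelled with biotin and hybridized to Affymetrix Mouse Gene 2.1 ST arrays. Values are log2 expression, deposited by the authors as a table per tissue with a single value for a gene symbol in each mouse and already normalized. Normalization method, software and probe summary are not given in the sources used here. Between 1 and 2 entries per table with a blank or numeric name were left out, which left 24646 genes. Array medians ran from 2.82 to 3.73 on the log2 scale. The number of arrays limits the precision.

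The members and the lists of other genes were chosen with earlier results of these data known. Genotypes were contrasted within each tissue in limma 3.58.1 under R 4.3.3 (lmFit, eBayes), with Benjamini-Hochberg adjustment over all 24646 genes and a threshold of 0.05. The procedure was tested on simulated data. Correlations used deviations from group means, without a test. Motifs were searched in RefSeq promoters (GRCm38.p6), in the 250 bases before the start. Named are all members, *Gpr146*, up to 5 called genes of a list or else those with the smallest p, and the 10 genes that vary most like *Hspa1a* and *Hspa1b*. *C130050O18Rik* was named after its values were seen. Alternatives tried were quantile normalization, equal array medians, array weights, a trended robust prior, leaving out dim genes, a block for the replicate number, each array left out, and the methods' t-test, with *Hspa8* or *Hspd1* subtracted alone added after seeing the data. Of the genes listed, *Stub1*, *Rbm3*, *Ciart*, *Adgre1* and *Hba-a1* were not analysed here.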

Additional observations from a re-analysis of the deposited data

Results flagged for a closer look

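Within 80 groups of 4 mice (10 genes, 4 tissues and 2 genotypes), 5 held a mouse whose gap to the nearest of the others, divided by the range of the group, exceeded Dixon's critical value for 4 samples, where chance gives about 1 in 20 groups. Wild-type mouse 1 was low for *Hspa1b* in BAT, at 3.89 against 7.81 to 8.36 in the others, and low for *Hspa1a* in eWAT, at 3.67 against 4.29 to 4.37. Knockout mouse 3 was high for *Dnajb1* in liver, at 4.84 against 4.31 to 4.40. Knockout mouse 4 was low for *Hsph1* in BAT, at 3.63 against 4.6 to 4.66. Knockout mouse 2 was low for *Hspd1* in eWAT, at 7.35 against 7.66 to 7.69. No cause of these values was tested.

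*Hspd1* lay above the wild-type mean in all 4 knockout mice in eWAT (difference 0.40) and below it in all 4 in BAT (-0.16), so its differences in these tissues were 0.56 apart. This distance was not tested.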

How the results depend on the processing

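Of 480 single member differences under array weights, quantile normalization, equal medians, the block and each array left out, 475 moved by less than 1 SD between mice. With 4 mice per group, leaving out 1 array cannot move a difference that far, and the block leaves it unchanged. Most of this count was thus fixed by the design. The 5 that moved by 1 SD or more were *Dnajb1*, *Bag3*, *Hspa8*, *Hspd1* and *Hsf1* in eWAT under quantile normalization. The sign changed for 1 of 40 member and tissue pairs, *Bag3* in iWAT, which was not called. Quantile normalization in eWAT left 4 members called in place of 8 and moved the mean of *Hspa8* and *Hspd1* from 0.01 to 0.18, and the cause was not tested. The methods' t-test left 0 members and 0 other heat shock genes called in liver and eWAT. With each array left out in turn, members called ran from 3 to 5 in liver, 2 to 8 in eWAT and 0 to 6 in BAT, and other heat shock genes called from 1 to 3 in liver, 3 to 14 in eWAT and 0 to 6 in BAT. The lowest member counts came without wild-type mouse 3 or knockout mouse 4 in liver (3 each) and without wild-type mouse 2 or 4 in eWAT (2 each), and the highest in BAT without wild-type mouse 1. Except for the fat depots without wild-type mouse 1, the share of all genes called under these alternatives was not counted. A change in these counts may therefore hold for all genes, and it is not read as one of the members. As a median over the 7 inducible members, the liver difference was -0.89 in place of -1.36. The correlation between mice was 0.43 in eWAT alone and ran from 0.50 to 0.79 with 1 array left out. In an alternative chosen after seeing the data, subtracting *Hspa8* alone or *Hspd1* alone in place of both changed the difference of the inducible members in eWAT from -0.79 to -0.40 or -1.18 and in iWAT from -0.52 to -0.28 or -0.76. With 2 units in place of 3, 5 members in place of 1 had a heat shock element before a start site.

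With the replicate number as a block, 5 members were called in eWAT in place of 8 and 11 other heat shock genes in place of 10, and no count changed in the other tissues (5 members in liver, 0 in iWAT and BAT). The share of all genes called with the block was not counted. Deviations of mice with the same number in both genotypes correlated with r from -0.38 to 0.67, of which 8 of 16 were not above 0.1. The best match of 8 of 16 wild-type arrays carried their own number, where 4 are expected for unrelated numbers, which is a hint from the data. As not every correlation passed 0.1 and no label ties the numbers across genotypes, the samples were taken to share only a number.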
